A study of Mus musculus with 54 samples.

Results

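The 10 genes described here, Clu, Sox9, Wt1, Amh, Fshr, Inha, Inhbb, Ctsl, Trf and Cldn11, are genes of the Sertoli cell, the somatic cell of the seminiferous tubule. They were taken by symbol, by no rule on a measured value but with earlier results of these data known. The count tables list 23284 genes, and all 10 were present. Their transcripts were followed in 12 RNA-seq libraries of whole testis, 12 of round spermatids and 11 of spermatocytes from C57BL/6 mice of 3 months, and their loci in 7 peak lists. CTCF is a zinc finger protein that binds DNA at many genomic sites, and BORIS, encoded by Ctcfl, is its paralogue of the male germ line.

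The 4 genotypes were wild type (WT, Ctcf+/+Boris+/+), the CTCF heterozygote (CTCF HET, Ctcf+/-Boris+/+), the BORIS knockout (BORIS KO, Ctcf+/+Boris-/-) and the compound mutant (CM, Ctcf+/-Boris-/-), whose libraries carry the name DKO in the labels. Every genotype had 3 libraries in each preparation, except that WT spermatocytes had 2. Both alleles are germline changes, so that Sertoli cells carry them as germ cells do. Each whole testis library stood for 1 preparation from 4 pooled mice. The whole testis RNA came from tubules that had been freed of interstitium with collagenase, treated with trypsin and strained, which gives a suspension enriched in germ cells. The Sertoli cell content of a library is therefore what this procedure left in it. Round spermatids and spermatocytes were isolated by elutriation and sorting.

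Sertoli cells span the wall of the tubule and surround the germ cells at every stage. They divide before puberty and are held to be quiescent in the adult, where they form the blood-testis barrier, answer to follicle-stimulating hormone (FSH) and testosterone, and secrete inhibin, transferrin and clusterin. Germ cells make up most of the cells of an adult tubule, so that Sertoli transcripts are a small part of testis RNA.

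Total counts ran from 10437683 to 42055813 in whole testis, from 47740650 to 98545423 in round spermatids and from 53337530 to 88946702 in spermatocytes. In every genotype of whole testis the library numbered 1 was the deepest. Ctcf, the gene deleted from 1 allele, was at 45.1, 40.9 and 42.1 CPM (counts scaled to library size by the TMM method) in WT whole testis and at 26.5, 26.9 and 24.3 in CM, with 27.7, 30.3 and 23 for CTCF HET and 30.7, 38.8 and 34.1 for BORIS KO. Ctcfl had 8 to 18 counts per library in WT against 3 to 7 (BORIS KO) and 2 to 8 (CM), and which of its exons are counted is not given in the sources used here. In round spermatids the libraries labelled CM had Ctcf at 177, 47.8 and 39.8 CPM against 49.7, 31.1 and 29.5 in WT, and in spermatocytes at 83.7, 33.1 and 32.4 against 33.8 and 32.0. Since Ctcf was not lower there, these purified libraries are called the libraries labelled CM. In CTCF HET spermatocytes Ctcf was at 31.3 to 50.5 CPM, with 2 of 3 libraries above both WT ones, so that name too is the labels' own. Ctcfl in round spermatids was at 2.90 to 5.10 CPM in WT and 2.12 to 2.46 in BORIS KO. The libraries labelled CM had it at 1.12 to 2.63 there. In spermatocytes it had 5 and 6 counts in WT and 0 to 29 in the libraries labelled CM.

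In WT whole testis the 10 genes together took 288, 364 and 521 CPM. In WT round spermatids their sum was 6.55 to 7.84 CPM and in WT spermatocytes 16.6 and 16.8 CPM. The whole testis libraries were made from RNA depleted of ribosomal RNA and the purified ones from polyadenylated RNA, and the tables were normalized separately, so these levels stand side by side without a test. All 10 genes had counts in every whole testis library. In WT round spermatids Amh had 0 counts in all 3 libraries, and Fshr and Cldn11 had at most 3 counts in a library.

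Per kilobase of exon, the order in WT whole testis was led by Clu at 61.2 ± 13.4 CPM per kb (SD, n = 3) and Ctsl at 41.5 ± 21.3. Inha followed at 22.9 ± 8.64, Cldn11 at 9.96 ± 1.25, Trf at 5.01 ± 1.77 and Inhbb at 3.33 ± 1.99 CPM per kb. At the low end stood Wt1 at 1.90 ± 0.35, Sox9 at 0.667 ± 0.121, Amh at 0.480 ± 0.081 and Fshr at 0.267 ± 0.184. The ranges of neighbours in this order overlapped except between Inha and Cldn11, Cldn11 and Trf, and Wt1 and Sox9. Thus a secreted glycoprotein, a protease and an inhibin subunit were the most abundant of these transcripts, and the FSH receptor and the Müllerian hormone the least. In the purified cells the order was different. Ctsl at 2.10 ± 0.12 CPM per kb, Inha at 1.12 ± 0.51 and Clu at 0.237 ± 0.029 led in WT round spermatids, and each of the other 7 was under 0.034. In WT spermatocytes Ctsl was at 3.39 ± 0.24 (n = 2), Clu at 1.98 ± 0.076, Inha at 0.619 ± 0.063 and Cldn11 at 0.354 ± 0.033 CPM per kb.

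CTCF peaks in germ cell-enriched preparations of WT testis lay at 6 of the 10 loci, where a locus is the gene extended by 2 kb on each side. The 6 genes were Clu, Wt1, Amh, Fshr, Inhbb and Trf, and 50.01% of all 21716 genes with a model had such a peak. In the CM list CTCF peaks remained at 3 loci, Clu, Amh and Trf, against 33.4% of all genes. BORIS peaks, mapped in WT, lay at Clu and Trf, against 22.1% of all genes. Sox9, Inha, Ctsl and Cldn11 had no CTCF or BORIS peak in any of these lists. Each list stands alone, so these counts have no replicate error, and the depth behind the peaks is unknown.

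The 6 loci held 12 WT CTCF peaks, of which 4 (33.3%) overlapped a CM peak, against 19427 of all 34625 WT peaks (56.1%). The 4 with a CM peak had heights of 1974 to 3389 and the other 8 heights of 102 to 1453. Over all WT peaks the share with a CM peak was 13.6% at heights of 100 to under 200, 56.5% at 200 to under 1000 and 92.3% at 1000 and above. Among the peaks of these genes too, those with a CM peak were the tallest, and the 1 peak at or above 1000 that had none was a peak of height 1453 in an intron of Trf. Clu and Trf are the 2 loci where CTCF, in both genotypes, and BORIS met at 1 place, and the sequences there are shown for that reason beside 3 sites without a CM peak. All are in mm9, 150 bases on the plus strand, and none overlaps an exon of its gene. Capitals mark AGNNGGC or its reverse complement GCCNNCT, 7 letters taken from the core of the CTCF consensus and searched on both strands. These letters occur in 72.9% of 34625 windows of 150 bases around WT CTCF summits and in 42.6% of 21716 windows of 150 bases before gene starts, and a match is a description, not a site.
The bases before the outermost Clu start, inside the promoter peak shared by CTCF in both genotypes and BORIS, chr14:66587170-66587319:
Clu promoter: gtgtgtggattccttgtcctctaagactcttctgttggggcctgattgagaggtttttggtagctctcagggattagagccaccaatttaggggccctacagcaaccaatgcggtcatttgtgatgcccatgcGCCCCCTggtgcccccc
The downstream Clu peak, with CTCF in both genotypes and no BORIS peak, chr14:66601077-66601226:
Clu downstream: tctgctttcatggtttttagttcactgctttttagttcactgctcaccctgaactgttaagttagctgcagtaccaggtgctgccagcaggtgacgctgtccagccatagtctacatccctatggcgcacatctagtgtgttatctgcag
The Trf intron peak with CTCF in both genotypes and BORIS, chr9:103110239-103110388:
Trf intron, CM peak: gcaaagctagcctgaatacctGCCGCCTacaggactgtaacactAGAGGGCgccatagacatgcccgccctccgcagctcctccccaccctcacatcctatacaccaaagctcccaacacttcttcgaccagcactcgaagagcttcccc
The Trf intron peak of height 1453 without a CM peak, chr9:103127926-103128075:
Trf intron, no CM peak: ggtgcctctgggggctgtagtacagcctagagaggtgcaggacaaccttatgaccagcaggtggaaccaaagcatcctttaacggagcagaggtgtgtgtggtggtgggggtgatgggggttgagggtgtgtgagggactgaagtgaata
The peak upstream of Inhbb, of height 405 and without a CM peak, chr1:121320233-121320382:
Inhbb upstream, no CM peak: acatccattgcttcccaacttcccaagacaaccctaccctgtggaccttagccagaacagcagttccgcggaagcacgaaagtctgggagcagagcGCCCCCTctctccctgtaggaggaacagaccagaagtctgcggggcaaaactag
The peak in a Wt1 intron, of height 530 and without a CM peak, chr2:104970494-104970643:
Wt1 intron, no CM peak: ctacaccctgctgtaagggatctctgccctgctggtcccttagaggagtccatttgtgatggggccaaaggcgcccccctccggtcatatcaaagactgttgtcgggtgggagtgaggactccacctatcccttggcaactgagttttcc
The Clu promoter, the shared Trf intron window and the Inhbb window each hold the letters, on the minus strand at Clu and Inhbb and on both strands at Trf. The downstream Clu window, which has a CM peak, and the Trf and Wt1 windows without one hold none. In these 6 windows the letters were thus found with and without a CM peak.

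The comparison of CM with WT asks how the joint loss of 1 Ctcf allele and both Boris alleles changes the testis transcriptome. Of the 10 genes, 5 rose in CM whole testis, 5 did not pass the test and 0 fell. Trf rose most, at 4.48-fold, followed by Amh, Clu, Ctsl and Sox9. A gene was called at an adjusted p under 0.05 and a fold change above 2. By that rule 21.2% of the 16378 genes tested were called in either direction and 15.3% as higher in CM. This test took the libraries as unpaired. With the library number as a replicate block 6 of the 10 rose, and 4420 of all genes were called. The median log2 fold change of the 10 genes was 1.32, against 0.00349 over all genes tested. As these are bulk samples, more Sertoli cells in a preparation and more of these transcripts in each cell cannot be told apart. The values of each gene in the 12 libraries follow, always for libraries 1, 2 and 3.

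**Figure D1:**
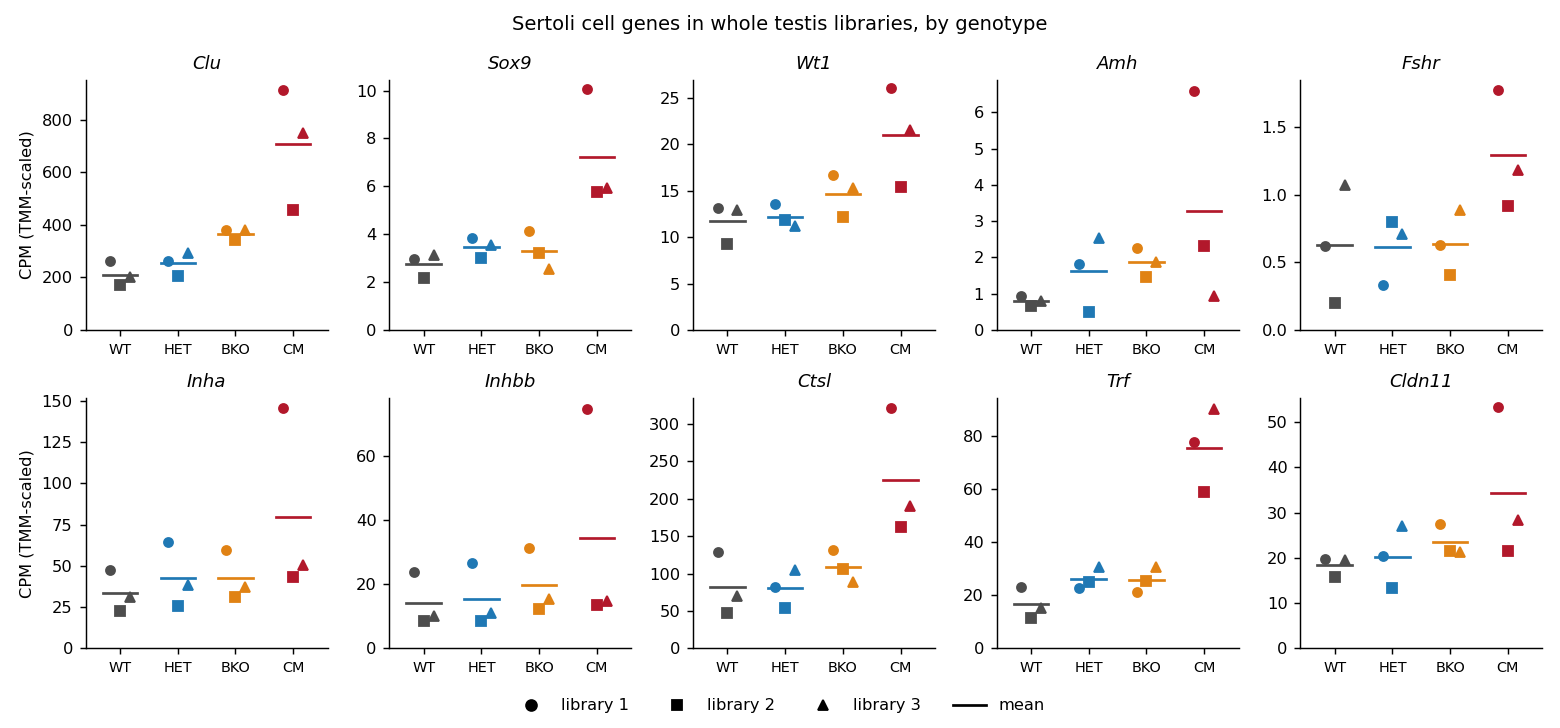
Level of each of the 10 genes in the 12 whole testis libraries, in CPM scaled by the TMM method on a linear axis from 0, with 1 symbol per library number and a bar at the mean of each genotype (HET, CTCF HET; BKO, BORIS KO). All 3 CM libraries lie above all 3 WT libraries for Clu, Sox9, Wt1, Amh, Ctsl, Trf and Cldn11, and CM library 1 stands highest of all libraries for every gene but Trf.

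Sox9 (ENSMUSG00000000567, chr11:112643538-112649074, plus strand) encodes the factor that directs Sertoli cell differentiation in the fetal gonad. It was at 2.97, 2.19 and 3.12 CPM in WT and 10.1, 5.74 and 5.91 in CM, with 3.84, 2.99 and 3.56 for CTCF HET and 4.12, 3.21 and 2.54 for BORIS KO. The 3 CM libraries lay above the other 9. Sox9 rose in CM by a log2 fold change of 1.38 ± 0.34 (SE, 3 libraries against 3, adjusted p = 0.0231). Wt1 (ENSMUSG00000016458, chr2:104966686-105013773, plus strand) encodes the zinc finger factor that maintains Sertoli cell identity. It was at 13.1, 9.28 and 12.9 CPM in WT and 26.1, 15.4 and 21.6 in CM, with 13.6, 11.8 and 11.2 for CTCF HET and 16.7, 12.1 and 15.3 for BORIS KO. The CM libraries lay above the WT ones but not above all of BORIS KO, and the difference from WT, 0.82 ± 0.28 on the log2 scale, did not pass the test (adjusted p = 0.0616). A lincRNA on the opposite strand starts 19 bases from Wt1 (AI314831) and another 248 bases from Sox9 (BC006965), and the strand of counting is not given in the sources used here.

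Amh (ENSMUSG00000035262, chr10:80267993-80270393, plus strand) encodes anti-Müllerian hormone, which immature Sertoli cells secrete and adult ones make little of. It was at 0.933, 0.663 and 0.801 CPM in WT and 6.59, 2.32 and 0.946 in CM, with 1.82, 0.488 and 2.54 for CTCF HET and 2.26, 1.45 and 1.87 for BORIS KO. The CM libraries were far apart, and the lowest of them was barely above the highest WT library, with 12 counts against 33 in that deeper library. Amh rose in CM by 2.04 ± 0.64 on the log2 scale (adjusted p = 0.0467), and without CM library 1 the difference was 1.05 and did not pass the test (adjusted p = 0.129). Sf3a2 lies 324 bases from Amh on the same strand.

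Inha (ENSMUSG00000032968, chr1:75503652-75506941, plus strand) encodes the inhibin α subunit, which pairs with a β subunit to form the hormone that restrains pituitary FSH. Its levels were 47.7, 22.5 and 31.3 CPM in WT and 145, 43.1 and 50.4 in CM, with 64.2, 25.9 and 38.3 for CTCF HET and 59.7, 30.9 and 37.2 for BORIS KO. Inhbb (ENSMUSG00000037035, chr1:121312042-121318825, minus strand), the βB subunit of inhibin B, was at 23.9, 8.49 and 10.1 CPM in WT and 74.7, 13.6 and 14.7 in CM, with 26.5, 8.48 and 11.1 for CTCF HET and 31.4, 12.4 and 15.5 for BORIS KO. Both subunits were highest in library 1 of every genotype, and WT library 1 exceeded CM libraries 2 and 3 for Inhbb. Neither passed the test (Inha 1.22 ± 0.48 on the log2 scale, adjusted p = 0.0908, and Inhbb 1.25 ± 0.68, adjusted p = 0.192). With the library number as a replicate block, used because libraries of 1 number deviated together in whole testis, Inha was called (1.07, adjusted p = 0.00318).

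Fshr (ENSMUSG00000032937, chr17:89384292-89600015, minus strand) encodes the receptor through which FSH acts on the Sertoli cell. With 3 to 73 counts per library, it was at 0.622, 0.199 and 1.07 CPM in WT and 1.77, 0.916 and 1.18 in CM, with 0.330, 0.793 and 0.712 for CTCF HET and 0.629, 0.402 and 0.882 for BORIS KO. WT and CM overlapped, and the difference, 1.09 ± 0.54 on the log2 scale, did not pass the test (adjusted p = 0.158).

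Clu (ENSMUSG00000022037, chr14:66587320-66600385, plus strand) encodes clusterin, a chaperone-like glycoprotein that Sertoli cells secrete in quantity. It was at 260, 170 and 201 CPM in WT and 915, 458 and 750 in CM, with 263, 205 and 292 for CTCF HET and 379, 341 and 379 for BORIS KO. All CM libraries lay above all others, and all BORIS KO libraries above WT and CTCF HET. Clu rose in CM by 1.73 ± 0.31 on the log2 scale (adjusted p = 0.0157). Trf (ENSMUSG00000032554, chr9:103106331-103132774, minus strand) encodes transferrin, which carries iron to the germ cells behind the barrier. It was at 23.1, 11.6 and 15.1 CPM in WT and 77.6, 58.7 and 90.3 in CM, with 22.8, 24.9 and 30.6 for CTCF HET and 21.1, 25.4 and 30.6 for BORIS KO. The CM libraries lay well above the other 9, and library 1 was not the highest. Trf rose in CM by 2.16 ± 0.31 on the log2 scale (adjusted p = 0.0151).

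Ctsl (ENSMUSG00000021477, chr13:64464522-64471614, minus strand) encodes cathepsin L, a lysosomal cysteine protease that Sertoli cells also secrete. It was at 129, 47.7 and 69.6 CPM in WT and 320, 163 and 191 in CM, with 82.3, 54.0 and 105 for CTCF HET and 132, 106 and 89.2 for BORIS KO. The CM libraries lay above the other 9, and Ctsl rose by 1.44 ± 0.40 on the log2 scale (adjusted p = 0.0333). Cldn11 (ENSMUSG00000037625, chr3:31048868-31063246, plus strand) encodes claudin 11, a strand-forming protein of the tight junctions of the blood-testis barrier. It was at 19.8, 15.7 and 19.6 CPM in WT and 53.2, 21.5 and 28.3 in CM, with 20.4, 13.4 and 27.0 for CTCF HET and 27.5, 21.5 and 21.3 for BORIS KO. CM lay above WT in every library but not above BORIS KO, and the difference from WT, 0.89 ± 0.34 on the log2 scale, did not pass the test (adjusted p = 0.0836).

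In all, 7 of the 10 genes had every CM library above every WT library, and 26.2% of the genes tested did. The calls were close to the threshold and rested on 3 libraries a group: without WT library 2, WT library 3 or CM library 3, 0 of the 10 genes and 11, 3 and 4 of all genes were called, and without WT library 1, 3 of the 10. Over the 14 alternatives the adjusted p of Trf reached 0.0648 and that of Clu 0.0677, with log2 fold changes of at least 1.95 and 1.55. At an adjusted p under 0.001 edgeR without the replicate block called no gene of the table. With the block Trf (adjusted p = 0.000124), Clu (0.000457) and Ctsl (0.000508) passed that threshold, and by DESeq2 Trf (9.16e-08) and Clu (2.02e-05) did.

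The ratio of each member to Wt1 in the same library is given as a description. Relative to Wt1 in the same library, Trf was at a log2 ratio of 0.46 ± 0.31 (SD, n = 3) in WT and 1.85 ± 0.25 in CM, with ranges of 0.23 to 0.81 and 1.57 to 2.06. For Clu the ratio was 4.15 ± 0.18 in WT and 5.05 ± 0.14 in CM, with ranges of 3.96 to 4.31 and 4.89 to 5.13. Sox9 was at -2.09 ± 0.05 and -1.56 ± 0.27. For these 3 of the 9 genes the ranges of WT and CM did not overlap. The share of all genes whose ratio to Wt1 separates in this way was not computed. In plain CPM, 26.2% of all genes tested had every CM library above every WT library. Cldn11 was at 0.65 ± 0.09 in WT and 0.63 ± 0.35 in CM, and Inhbb at 0.13 ± 0.65 and 0.26 ± 1.11, with ranges that overlapped between WT and CM. With 3 libraries against 3, an exact permutation test of such ratios cannot pass the threshold, and none was run. Across the 12 libraries the 10 genes moved together: the Pearson correlations of log2 CPM in the 45 pairs ran from 0.418 to 0.958 with a median of 0.791, over libraries that share genotype, depth and library number.

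**Figure D2:**
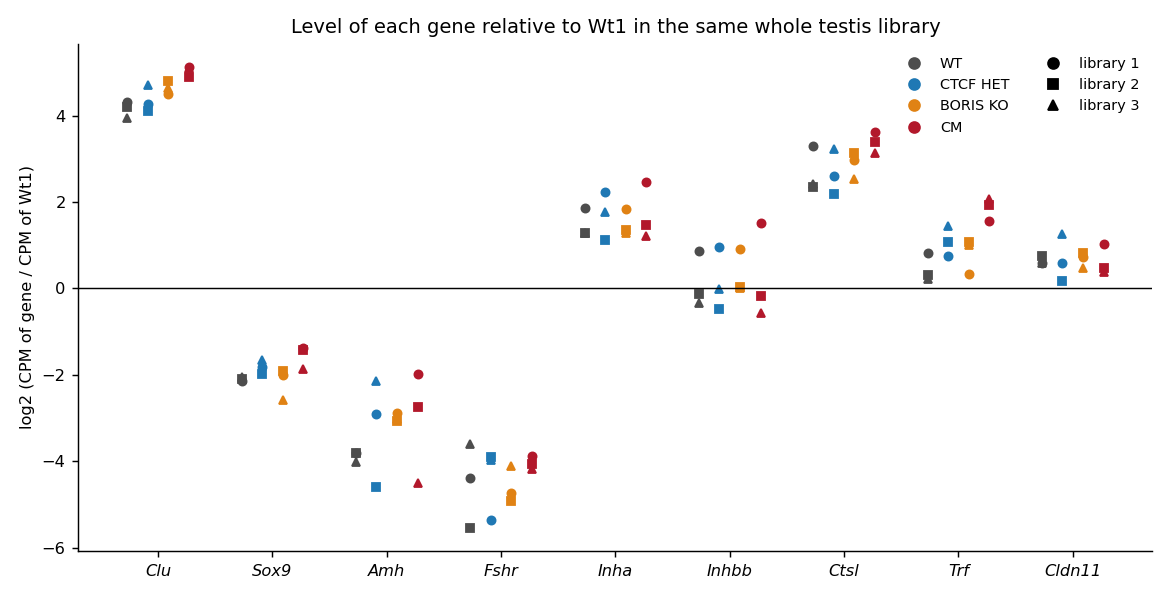
Log2 ratio of the CPM of 9 genes to the CPM of Wt1 in the same whole testis library, with 1 symbol per library number and 1 colour per genotype. Trf, Clu and Sox9 stand higher relative to Wt1 in all 3 CM libraries than in all 3 WT libraries, whereas the other 6 genes overlap between WT and CM. No share over all genes was computed for these ratios.

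Other transcripts of the Sertoli cell and of its hormone pathway were taken from fixed lists. Of 32 further Sertoli genes, 29 were tested, 10 rose in CM, 0 fell, and the median log2 fold change was 0.89. Among those with the smallest adjusted p were Cxcl12, a chemokine for spermatogonial stem cells, at 2.73 ± 0.52 (adjusted p = 0.0161), Gja1, the gap junction protein connexin 43, at 2.33 ± 0.45 (adjusted p = 0.0161), the factor Gata4 at 1.46 ± 0.30 (adjusted p = 0.0169), Kitl, the ligand of KIT, at 1.68 ± 0.37 (adjusted p = 0.0189) and Cldn5, a claudin, at 1.80 ± 0.41 (adjusted p = 0.0199). By role, 3 of 7 tested factors, 2 of 5 signals, 2 of 9 junction genes (4 with the replicate block) and 3 of 8 secreted and other products rose, beside 15.3% of all genes called as higher in CM. Several of these are also made by Leydig, peritubular or endothelial cells. Of 18 genes of the FSH, inhibin and AMH pathway, 6 rose and 0 fell, with a median log2 fold change of 0.94. They were the activin antagonist Fst (1.91), the AMH receptor Amhr2 (1.30), the type I receptor Acvr1 (1.48), the inhibin co-receptor Tgfbr3 (1.35), the mediator Smad3 (1.59) and Gnas, the stimulatory G protein subunit (1.57).

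Markers of other cells also differed between CM and WT whole testis, where 15.3% of all genes were called as higher in CM. Of 7 Leydig genes 5 rose, and their summed level ran from 380 to 610 CPM in WT and from 1876 to 3821 in CM. Of 7 macrophage genes 5 rose, and the sum of all 7 was 499 to 684 CPM in WT and 529 to 680 in CM. Most of that sum in WT was Aif1, at 487 ± 91.2 CPM (SD, n = 3) against 238 ± 121 in CM (log2 fold change -1.04, adjusted p = 0.0906), and called lower by DESeq2 and with the replicate block. The other 6 summed to 60.3 to 149 CPM in WT and 197 to 579 in CM. Of 5 peritubular myoid genes 1 rose (2 with the block, sum 11.9 to 15.7 against 15.9 to 35.3 CPM), and of 4 endothelial genes 1 (7.94 to 9.97 against 12.03 to 23.1 CPM). Of 6 genes of spermatogonia 2 rose and 4 of 6 differences were positive, with sums of 47.6 to 63.8 against 113 to 399 CPM. Most of that sum in CM was Kit, at 204 ± 137 CPM (SD, n = 3) against 27.5 ± 10.0 in WT. The paper reports KIT protein in spermatocytes and round spermatids of CM testis too, so this sum need not follow spermatogonia. Of 6 spermatocyte genes 0 were called, with sums of 664 to 724 against 549 to 667 CPM. Of 6 round spermatid genes 1 fell (3 with the block, sum 8736 to 15733 against 2595 to 8887 CPM). Each of these markers had counts in WT and in CM. The part of these cells in the rise of the Sertoli genes was not tested.

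The single mutants were compared with the same WT libraries. In CTCF HET 0 of the 10 genes were called by edgeR's quasi-likelihood test, against 0.00621% of all genes, with 1 (Trf) at an unadjusted p under 0.05 (2.63% of all genes) and 0 called by DESeq2. The log2 differences ran from -0.05 for Fshr to 0.95 for Amh, 8 of 10 were positive, and the median was 0.21. In BORIS KO 0 were called by edgeR, against 0.0551% of all genes, with 3 (Clu, Amh and Trf) at an unadjusted p under 0.05 (16.6% of all genes) and 0 called by DESeq2. All 10 differences were positive, with a median of 0.39 against 0.03 over all genes. Clu was at 0.81 ± 0.18 on the log2 scale (adjusted p = 0.195), with all 3 BORIS KO libraries above all WT ones. With the replicate block its adjusted p was 0.00730 at a difference of 0.83, under the fold threshold, and Amh was called (1.23, adjusted p = 0.0492).

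**Figure D3:**
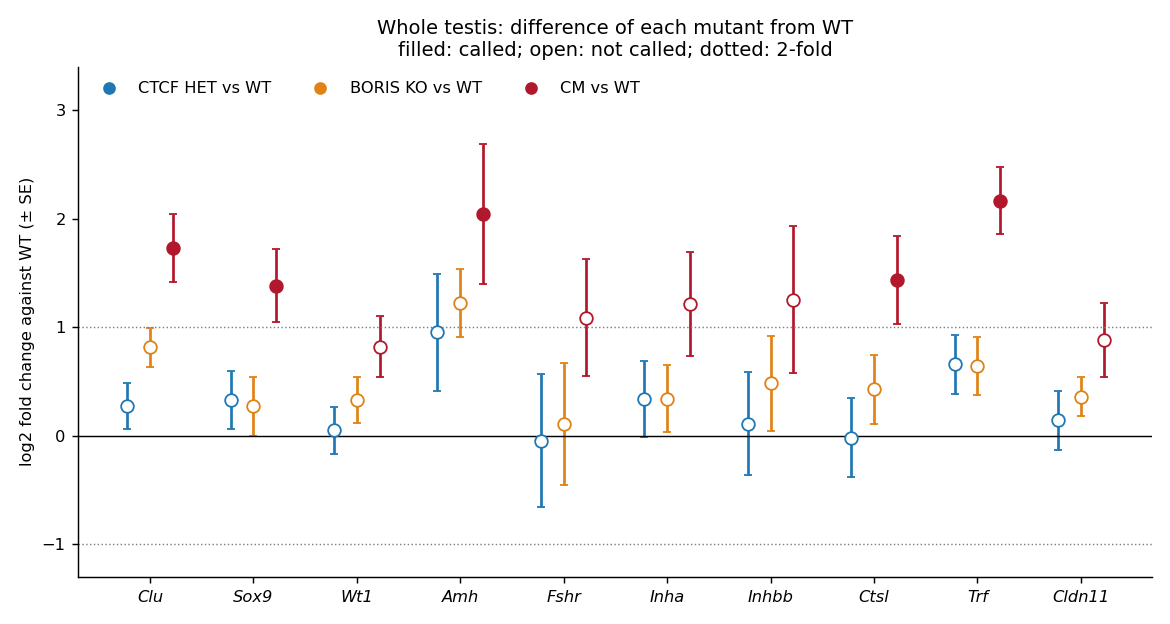
Log2 fold change of each gene in CTCF HET, BORIS KO and CM whole testis against the same 3 WT libraries, with bars of 1 standard error. Filled points passed the test and the fold threshold, which 5 CM values did and no value of the single mutants. These fits had no replicate block, and with it 6 genes were called in CM and 1 in BORIS KO.

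CM was also set against each single mutant, which carries part of its genotype. Against BORIS KO, where only the Ctcf allele differs, 0 of the 10 genes were called by edgeR, against 0.006% of all genes, with 5 (Clu, Sox9, Fshr, Ctsl and Trf) at an unadjusted p under 0.05, as 21.6% of all genes were. DESeq2 called 1 of the 10 and 6.2% of all genes. All 10 differences were positive, with a median of 0.89, and Trf had the largest at 1.52 ± 0.26 (adjusted p = 0.144). With the replicate block Trf (1.52, adjusted p = 0.0255) and Sox9 (1.09, adjusted p = 0.0492) were called. Against CTCF HET, where only Boris differs, 3 rose, against 1715 of all 16531 genes called as higher and 14.3% called in either direction. They were Trf by 1.51 ± 0.27 on the log2 scale (adjusted p = 0.0216), Clu by 1.46 ± 0.32 (adjusted p = 0.0254) and Ctsl by 1.46 ± 0.35 (adjusted p = 0.0299). The replicate block added Sox9 (1.03, adjusted p = 0.00816). Without CTCF HET library 2 or 3, or CM library 3, 0 were called, and without CTCF HET library 1, 1 was.

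Whether the CM difference exceeds the sum of both single differences was tested in 1 model over the 12 libraries. By edgeR 0 of the 10 genes and 0% of all genes were called, with 1 of the 10 (Trf) at an unadjusted p under 0.05, and 1713 of all 17185 genes. DESeq2 called 0 of the 10. The excess over the sum on the log2 scale was positive in 9 of 10, with a median of 0.68 against 0.00661 over all genes. Trf was at 0.91 ± 0.38 (adjusted p = 0.478), Ctsl at 1.07 ± 0.52 (adjusted p = 0.509) and Amh at -0.10 ± 0.87 (adjusted p = 0.977).

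In the purified germ cells most of these genes had few counts, apart from Ctsl, Clu and Inha, and the groups compared share their WT libraries. In round spermatids 3 of the 10 genes had enough counts to be tested for CTCF HET, 4 for BORIS KO and 5 for the libraries labelled CM. In CTCF HET 0 were called by edgeR, against 5.39% of all genes, with 0 at an unadjusted p under 0.05 (38.2% of all genes) and 0 by DESeq2. In BORIS KO 1 was called, against 26.9% of all genes. Inha was at 2.45, 0.938 and 1.56 CPM in WT and 5.57, 4.35 and 3.92 in BORIS KO, without overlap, and rose by 1.44 ± 0.32 on the log2 scale (adjusted p = 0.00423). Ctsl was lower in BORIS KO, at 1.85, 1.80 and 3.48 against 4.15, 4.39 and 3.90 CPM, a log2 difference of -0.84 ± 0.27 that is under the fold threshold (adjusted p = 0.0252).

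In the round spermatid libraries labelled CM 0 of the 10 genes were called by edgeR, against 0.00654% of all genes, with 1 of 5 (Ctsl) at an unadjusted p under 0.05, as 20.5% of all genes were, and 1 called by DESeq2, as 9.07% were. Ctsl was at 4.30, 63.3 and 16.0 CPM, from 334, 4914 and 1044 counts, so that library 1 lay within the WT range and library 2 stood far above it. The 6 spermatogonial markers summed to 24.7, 285 and 41.0 CPM in the same libraries and to 13.4 to 21.2 in WT, and their part in the level of Ctsl was not tested. These markers include Kit, whose protein the paper reports in CM round spermatids. The difference was 2.83 ± 0.86 on the log2 scale (adjusted p = 0.174, and 0.00371 by DESeq2). Wt1 was at 0.593, 0.567 and 0.489 CPM against 0.138, 0.256 and 0.0975 in WT, from 32 to 46 counts against 5 to 12. These groups did not overlap, and the difference of 1.78 ± 1.01 did not pass the test (adjusted p = 0.362). Amh had 0 counts in all 3 libraries, as in WT, and Fshr 0. In these libraries 14932 to 16670 genes had a count, against 17504 to 17985 in WT.

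In spermatocytes 6 genes were tested for CTCF HET, 9 for BORIS KO and 7 for the libraries labelled CM. CTCF HET had 0 calls by edgeR, against 4.89% of all genes, with 2 of 6 (Clu and Inha) at an unadjusted p under 0.05, as 30.2% of all genes were, and 0 by DESeq2. Sox9, Amh, Fshr, Inha and Trf had 0 counts in all 3 CTCF HET libraries, in which 12018 to 13406 genes had a count against 17631 and 17683 in WT. Inha, with 67 and 77 counts in WT, was at least 14.4-fold lower there by a floor of 3 counts per library, which allows for counting error only (adjusted p = 0.0808). The same floor gave Sox9 at least 3.20-fold and Trf at least 2.20-fold lower. Among the same 3 libraries Wt1 ran from 0 to 171 counts, Cldn11 from 0 to 46 and Inhbb from 0 to 25. The floor does not cover such a spread between libraries, so these folds are not bounds on it. Clu was at 3.21, 4.01 and 2.34 CPM against 6.64 and 7.01 in WT, without overlap (log2 difference -1.09 ± 0.36, adjusted p = 0.0860).

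In BORIS KO spermatocytes 1 gene was called, against 8.43% of all genes. Amh had 30, 28 and 13 counts (0.402, 0.287 and 0.182 CPM) against 4 and 10 in WT (0.0506 and 0.127 CPM), and rose by 1.69 ± 0.50 on the log2 scale (adjusted p = 0.0120). Inha was at 1.71, 1.68 and 1.51 CPM against 0.847 and 0.979, higher in all 3 libraries by 0.84 ± 0.18 and under the fold threshold (adjusted p = 0.00145). BORIS KO library 1 stood apart from libraries 2 and 3 for most of the other genes, with Clu at 11.3 against 2.56 and 2.57 CPM, and Ctsl at 6.05 against 2.80 and 2.72. In the full fit by edgeR 61.8% of all genes were at an unadjusted p under 0.05. Without BORIS KO library 1, 6 of the 10 genes were called, and the share of all genes called in that fit is not given here. The 6 were Amh, higher, and Clu (-1.42), Sox9 (-2.26), Wt1 (-1.79), Ctsl (-1.28) and Cldn11 (-1.03 on the log2 scale), lower. Without WT library 1, 0 were called.

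The spermatocyte libraries labelled CM had 0 calls by edgeR, against 0.434% of all genes, with 2 of 7 (Clu and Ctsl) at an unadjusted p under 0.05, as 29.8% of all genes were, and 0 by DESeq2. Clu was at 5.20, 4.18 and 3.37 CPM, below both WT libraries (-0.66 ± 0.25 on the log2 scale, adjusted p = 0.144). Ctsl was at 8.43, 14.2 and 11.6 CPM, above the WT values of 7.03 and 6.37 (0.79 ± 0.26, adjusted p = 0.113). Amh had 0 counts in all 3, against 4 and 10 in WT. Trf, the gene that rose most in CM whole testis, had 1, 0 and 0 counts against 12 and 10 in WT. In these libraries labelled CM 14145 to 16666 genes had a count, against 17631 and 17683 in WT. Of the 5 genes that rose in CM whole testis, Amh and Trf had too few counts to be tested in either purified cell type labelled CM, and Sox9 in round spermatids.

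**Figure D4:**
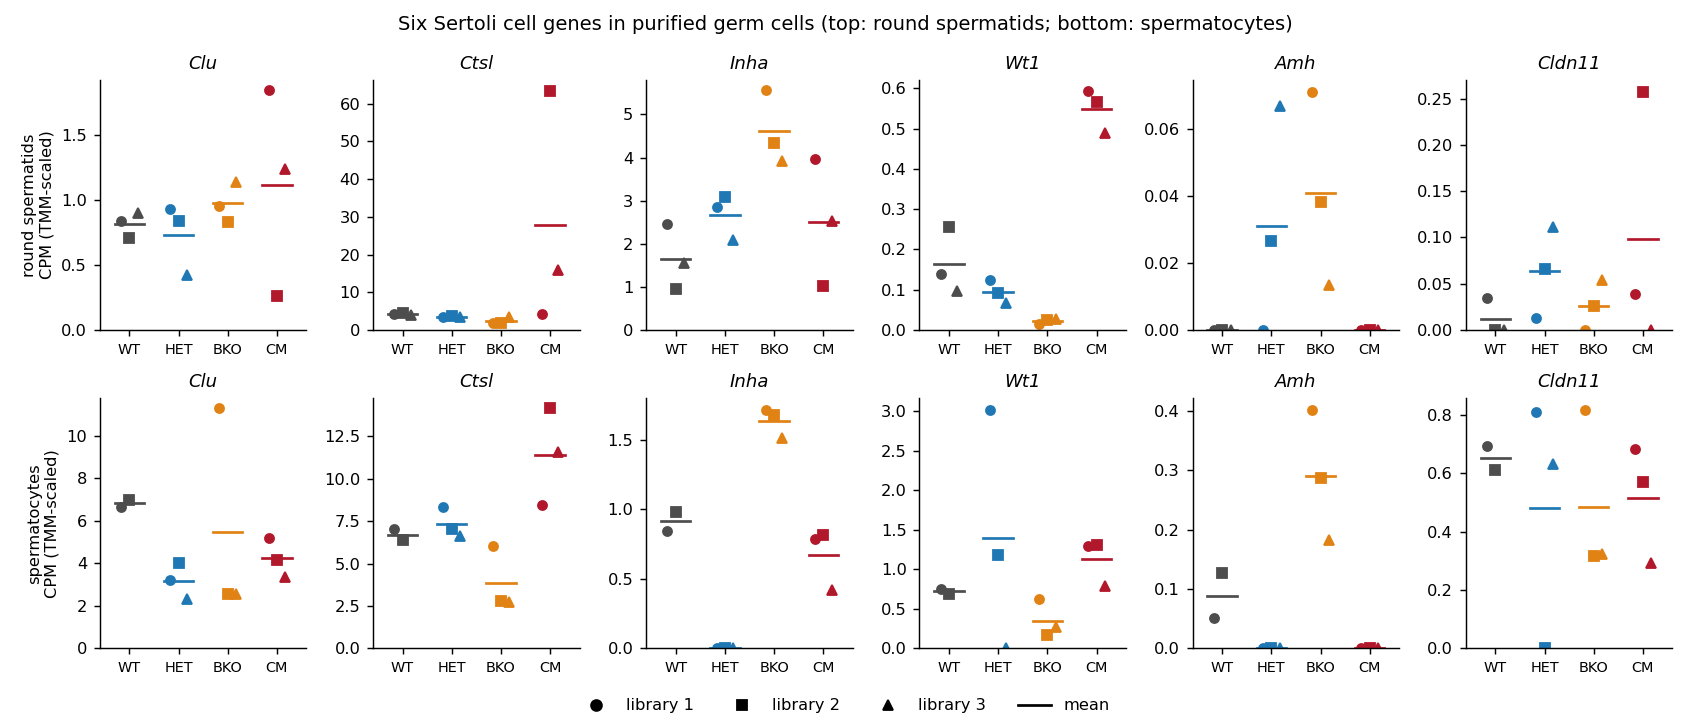
Level of 6 of the genes in round spermatid (top) and spermatocyte (bottom) libraries, in CPM scaled by the TMM method on linear axes from 0, with 1 symbol per library number and a bar at the mean of each genotype. Inha lies higher in all BORIS KO libraries than in all WT libraries of both cells, and Ctsl in round spermatids spreads from 4.30 to 63.3 CPM among the libraries labelled CM.

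RNA polymerase II (Pol2) and histone H3 trimethylated at lysine 4 (H3K4me3), which mark initiation and active promoters, were mapped in germ cell-enriched preparations of WT and CM testes. Within 1 kb of a start, Pol2 was listed in WT at 1 of the 10 genes, Ctsl, and in CM at 5, with Clu, Sox9, Wt1 and Cldn11 added. Thus 4 genes had a promoter peak in the CM list only and 0 in the WT list only, and 11.4% of the 15629 genes tested in CM whole testis had Pol2 in the CM list only. Of those 15629 genes 54.6% had Pol2 at the promoter in the WT list and could not gain it, against 1 of the 10. The 2 shares thus have unlike bases, and only 1 of the 10 could lose the mark. H3K4me3 was listed at 2 promoters in WT, Sox9 and Ctsl, and at 8 in CM, where Clu, Wt1, Inha, Inhbb, Trf and Cldn11 were added. These 6 stood beside 9.01% of the genes tested, and again 0 had it in the WT list only. Here too the bases differ, since 70.3% of the genes tested had H3K4me3 at the promoter in WT, against 2 of the 10. Amh and Fshr had neither mark at the promoter in any list. The lists have 25192 Pol2 peaks in WT and 28407 in CM, and 34347 and 20432 for H3K4me3, with no replicate error. By the labels H3K4me3 had 1 library for each genotype and Pol2 had 2.

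The genes with a mark added in CM included genes that were called on RNA and genes that were not. Clu had a Pol2 peak at the start in CM with a score of 314.36, above 76.1% of the list, with 4 more peaks along the gene and downstream. Ctsl had a Pol2 peak in both lists, scored 79.68 in WT, above 26.6% of that list, and 961.91 in CM, above 92.4% of that one. The scores were not compared between the lists. Sox9 at 62.54 and Cldn11 at 59.87 were among the weaker Pol2 peaks of the CM list, above 18.2% and 15.05% of it. Trf, which rose most, had no Pol2 peak at a start, and its H3K4me3 peak in CM, scored 89.12, lay above 26.5% of the list and 337 bases from a start. Inha, Inhbb, Wt1 and Cldn11 had H3K4me3 added in CM without a call on RNA. The CM Pol2 and WT H3K4me3 peaks at Sox9 and the CM H3K4me3 peaks at Wt1 and Inha lie within 1 kb of starts of BC006965, AI314831 and Obsl1, and could belong to either gene.

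**Figure D5:**
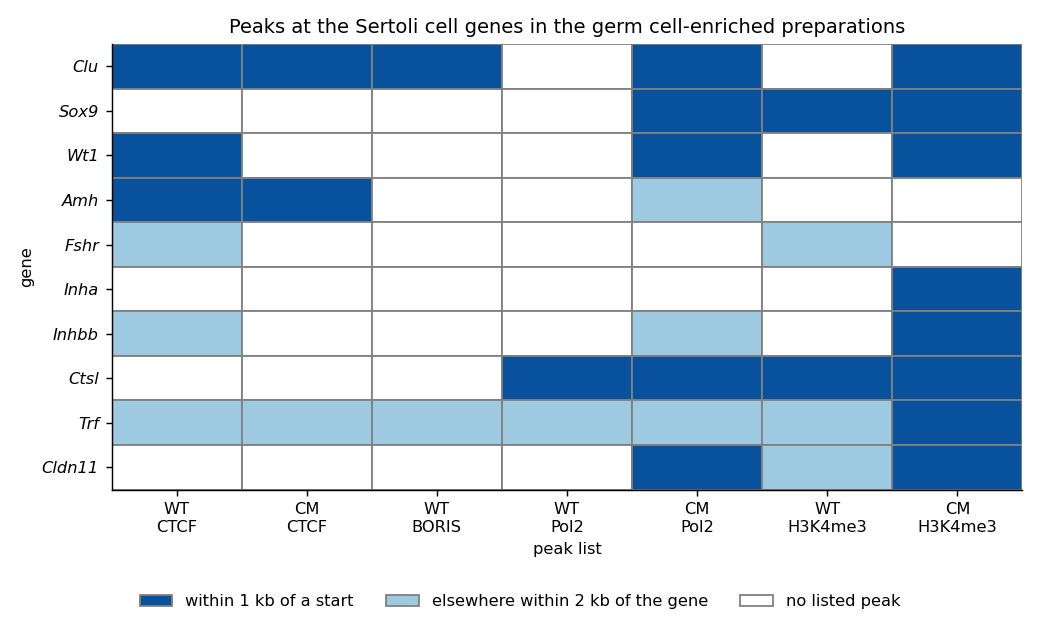
Presence of peaks at each of the 10 genes in the 7 peak lists, with dark cells for a peak within 1 kb of a start, light cells for a peak elsewhere within 2 kb of the gene and white cells for none. Dark cells number 1 and 5 in the Pol2 lists of WT and CM, 2 and 8 in their H3K4me3 lists and 3 and 2 in their CTCF lists. Cells of either shade number 6 and 3 for CTCF, where 50.01% and 33.4% of all genes had such a peak.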

How the data were processed

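RNA-seq was analysed from whole testis (12 libraries), round spermatids (12) and spermatocytes (11), and ChIP-seq from 7 peak lists. For each gene symbol the authors deposited unnormalized counts of reads aligned to mm9 with TopHat2, then Bowtie2 for the unmapped reads, for whole testis and STAR for purified cells. The counting tool and its use of strand are not given in the sources used here. The authors deposited CTCF and BORIS peaks with a summit and a height, a signal of unstated normalization, and Pol2 and H3K4me3 peaks with a score (Bowtie2, MACS, PeakSplitter). Each list stands for 1 target and genotype, from 2 germ cell-enriched preparations for the CTCF and BORIS experiments. For CTCF the paper used a mix of commercial antibodies.

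Counts were scaled by TMM, filtered with filterByExpr (minimum count 10, minimum total 15) and tested between the 2 groups of a comparison with edgeR 4.0.16 (R 4.3.3), quasi-likelihood F test with robust estimation and Benjamini-Hochberg adjustment over all genes tested. Genes were called at adjusted p under 0.05 and fold change above 2. The study itself used DESeq2 with an adjusted p under 0.001, which are alternatives here (DESeq2 1.42.0). The pipeline was tested on simulated data. CPM are TMM-scaled values of this work. A count of 3 per library was taken as the floor, for counting error only. Gene models came from GENCODE vM1 on mm9 (21716 symbols with 1 model).

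Libraries of different genotypes with the same number deviated together in whole testis, with correlations above 0.1 in 18 of 18 pairs (0.179 to 0.717), against 9 of 18 in round spermatids and 2 of 15 in spermatocytes, so the number was read as pairing libraries in whole testis only. The labels do not say what libraries of 1 number share, and in whole testis number 1 was the deepest in every genotype. The named genes are the 10 members in every comparison, at most 6 called genes of each further list and the 10 genes most like the members. A gene of these lists is not reported here. The members and lists were chosen with earlier results of these data known. Alternatives were RLE scaling, DESeq2, no filter, all 4 genotypes in 1 fit, the replicate block, the stricter and no fold threshold, each library left out, wider loci, a larger overlap and the upper 50% of each peak list. For purified cells the labels do not say that replicates are separate preparations, so p-values there may measure technical spread.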

Additional observations from a re-analysis of the deposited data

Results flagged for a closer look

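The differences of Clu from WT had opposite signs in CM whole testis and in the spermatocyte libraries labelled CM. All 3 CM libraries lay above WT in whole testis, at a log2 fold change of 1.73, and all 3 lay below both WT libraries in spermatocytes, at -0.66. The gap between these values was 2.39 on the log2 scale. The difference was not tested, since the tables were made with different chemistry and normalized separately. The whole testis value passed the test and the spermatocyte value did not (adjusted p = 0.144). Clu was also below both WT libraries in all 3 CTCF HET spermatocyte libraries and in BORIS KO libraries 2 and 3.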

How the results depend on the processing

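Under the alternatives listed with the methods and 1 chosen after seeing the data (the libraries numbered 1 left out of every genotype), 138 of 179 counts of called members or of members with a peak stayed within 1.5 times the reported value. Of 1302 values of single genes, 1225 stayed on their side of the threshold in the same direction, 43 lost a call, 34 gained one and 0 called values reversed. Among 1131 values called under neither setting, 52 had the other sign. In whole testis, with the replicate block 6 members were called in CM against WT (main 5), 1 in BORIS KO (0), 2 in CM against BORIS KO (0) and 4 in CM against CTCF HET (3). In BORIS KO spermatocytes, where the number does not pair libraries, the block gave 2 (1). It changed no other call count of members. Leaving out the libraries numbered 1 gave 1 in BORIS KO and 1 in CM against BORIS KO. DESeq2 called 1 in CM against BORIS KO and 1 in the round spermatid libraries labelled CM. With all 4 genotypes in 1 fit the counts were 1 in CM against BORIS KO, and in round spermatids 2 in BORIS KO and 1 in CM, and in spermatocytes 2 in CTCF HET and 0 in BORIS KO. By edgeR without the block the threshold of 0.001 left 0 in CM against WT, CM against CTCF HET, BORIS KO round spermatids and BORIS KO spermatocytes. With no fold threshold 2 were called in BORIS KO round spermatids and 2 in BORIS KO spermatocytes, and with no filter 2 in the former. The range over single libraries left out was 0 to 7 in CM against WT, 0 to 2 against BORIS KO, 0 to 5 against CTCF HET (5 without CM library 2), 0 to 1 in CTCF HET and CM and 1 to 2 in BORIS KO round spermatids, and 0 to 2 in CTCF HET and 0 to 6 in BORIS KO spermatocytes. Where a WT spermatocyte library was left out, the lone library was assumed to vary like the other group. CTCF peaks in CM lay at 5 loci when these were extended by 10 kb (3). In the upper 50% of each list peaks lay at 1 locus for BORIS, 1 for WT Pol2, 4 for CM Pol2, 3 for WT H3K4me3 and 4 for CM H3K4me3. The cause of these differences was not tested. Over all genes, edgeR, DESeq2 and the replicate block called 9, 225 and 273 in BORIS KO, 1, 3 and 18 in CTCF HET, 1, 1032 and 1004 in CM against BORIS KO, 2361, 3283 and 3911 against CTCF HET, 0, 27 and 4 for the excess over the sum, and, in the libraries labelled CM, 1, 1387 and 1 in round spermatids and 64, 1175 and 68 in spermatocytes.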

Other observations

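The genes most like the Sertoli genes were those whose log2 CPM over the 12 whole testis libraries had the highest Pearson correlation with the mean of the 10 members' standardized levels, among 17175 genes. They were Tmem161a (0.989), Slc27a3 (0.983), Axl (0.975), Mmp14 (0.975), Tmem43 (0.972), Slc3a2 (0.970), Chpf2 (0.969), Igtp (0.969), Hist1h3h (0.969) and Kcnh1 (0.968). Axl is a receptor tyrosine kinase of the TAM family, which Sertoli cells use to clear dying germ cells, and Mmp14 a membrane-bound metalloprotease. Axl was at 31.2 ± 9.4 CPM (SD, n = 3) in WT and 92.4 ± 49.4 in CM, and Mmp14 at 9.29 ± 3.69 and 44.9 ± 41.9. Each of the 10 was called as higher in CM, as the measure of likeness favours, since the members are high in CM. By Spearman's correlation 3 of the 10 stayed among the first 10, and over the 9 libraries that are not CM 3 did. The points share genotype, depth and library number, and no p is given.

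Among the members, the correlation with the members' mean ran from 0.761 for Fshr to 0.950 for Ctsl over 12 libraries, and without the CM libraries from 0.295 for Fshr to 0.882 for Ctsl.

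Counts limit Fshr and Amh in whole testis, where WT libraries had 3 to 22 and 9 to 33 counts, and all members but Ctsl, Clu and Inha in round spermatids. Peak lists carry no replicate error and no depth.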
